A study of Mus musculus with 36 samples.

Results

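The olaparib response of SPOP-mutant prostate cancer cells was compared between cells that shared their medium with macrophages and cells that did not. The quantity described is an interaction: the log2 change with olaparib in coculture minus the log2 change with olaparib in cells grown alone. It was formed from 12 of the 36 RNA-seq libraries of the study, all from RM-1-BM, a mouse prostate cancer cell line, transduced with the F133V mutant of SPOP. Those 12 libraries are 4 groups of 3. They are F133V cells opposite RAW264.7 macrophages with olaparib, the same coculture with the vehicle DMSO, F133V cells alone with olaparib, and F133V cells alone with DMSO. RAW264.7 is a mouse macrophage line. It was kept apart from the cancer cells by a transwell membrane, through which soluble factors pass. All 12 libraries are labelled as F133V and were made from total RNA. RM-1-BM cells transduced with an empty vector and handled in the same 4 ways gave 12 more libraries, used to ask whether the interaction differed between the lines and, in the joint fit, for the estimate of the spread. The sources used here give neither the dose nor the hours of treatment, nor whether the transduced cells are 1 clone or a pool. Nothing in the labels says that the 3 libraries of each group are separate cultures, so each p-value reflects the spread among libraries, which may be technical.

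SPOP is the substrate adaptor of a cullin ubiquitin ligase, and the F133V change lies in the domain that holds substrates. Olaparib blocks the catalytic site of PARP enzymes, which mark DNA breaks with ADP-ribose chains, and it is most toxic to cells that cannot repair breaks by homologous recombination. Macrophages release cytokines, lipids and oxidants that reach neighbouring cells through the medium and can change their inflammatory, metabolic and stress programmes. A drug response measured without them can therefore differ from one measured beside them, and the interaction measures that difference gene by gene.

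The 12 F133V libraries held between 32063028 and 43062440 reads counted on genes. Levels are CPM, the counts scaled to library size with TMM, and log2 values come from edgeR's quasi-likelihood fit of all 24 cancer libraries with their standard error (SE) and Benjamini-Hochberg adjusted p. A gene was called at an adjusted p under 0.05. Without TMM scaling, the 30 macrophage markers listed summed to between 14.9 and 18.7 CPM in the F133V libraries, against 18300 to 20990 CPM in the macrophage libraries, and between 5 and 8 of the 30 were at 0. Lyz2, a lysozyme abundant in macrophages, read at most 1.42 CPM in F133V libraries on the same scale. The group means of Vim, the intermediate filament gene of mesenchymal cells, lay between 739 and 1300 CPM. Spop itself read 114, 115 and 112 CPM in coculture with olaparib and 93.7, 97.2 and 99.4 with DMSO. Grown alone, the cells had 109, 104 and 95.7 CPM with olaparib and 104, 106 and 107 with DMSO. Group means of Spop lay between 96.8 and 114 CPM in F133V cells and between 111 and 124.5 CPM in vector cells. These totals do not show the mutant allele, so the genotype labels were not checked by Spop.

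The coculture DMSO group stood apart from the other 3 groups. On the first principal component, which held 60.01% of the variance of the 12 libraries, its libraries lay between 79.0 and 80.4, against −42.5 to −42.0 for coculture with olaparib, −31.1 to −30.3 for olaparib alone and −7.02 to −6.37 for DMSO alone. The median absolute log2 difference between groups was 0.553 for olaparib against DMSO in coculture and 0.153 for olaparib against DMSO alone. It was 0.233 for coculture against monoculture with olaparib and 0.438 for coculture against monoculture with DMSO. With olaparib the cocultured cells were thus closer to cells alone than with DMSO. Every interaction below rests on all 4 groups and moves with the level in this one.

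**Figure D1:**
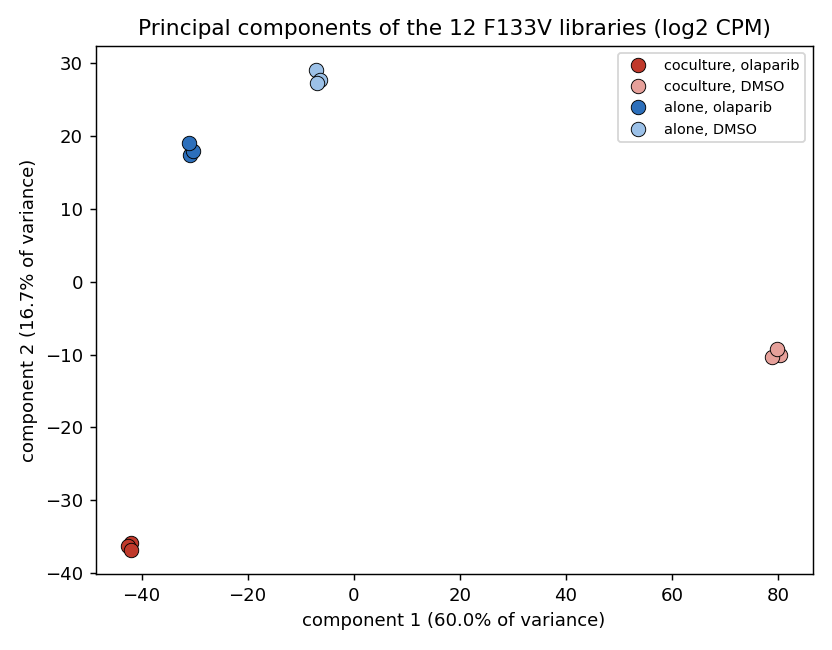
First and second principal component (log2 CPM, arbitrary units) of the 12 F133V libraries, 1 point per library, coloured by group. Component 1 (60.01% of variance) sets the 3 coculture DMSO libraries at about 80 apart from the other 9, which lie between −42.5 and −6.37, and component 2 (16.7%) sets coculture with olaparib apart from both groups grown alone.

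Structural RNA moved with the groups. The classes summed were snRNA, scaRNA, ribozyme and misc_RNA, taken without TMM scaling. They made up 100.1 ± 2.73 CPM of gene counts in coculture with olaparib and 409 ± 13.7 with DMSO, and 187 ± 12.6 alone with olaparib and 370 ± 11.9 alone with DMSO (mean ± SD, n = 3 each). Gm26917 was picked out by its level and made up 0.487% of reads on genes in coculture with olaparib and 3.56% with DMSO, and 1.43% alone with olaparib and 3.84% alone with DMSO. The mitochondrial ribosomal RNA mt-Rnr2 held 1220 ± 28.6 CPM in coculture with olaparib and 4299 ± 181 with DMSO, and 2861 ± 360 alone with olaparib and 4157 ± 93.7 alone with DMSO. Vector cells had between 57.7 and 67 CPM of structural RNA in all 4 groups. Both F133V groups with DMSO were high, with or without macrophages, and the 3 coculture olaparib libraries were the lowest of the 12. Its part in the results was not tested. With these genes left out, 10255 of 15850 interactions were called, against 10289 of 15962 with them. Leaving them out keeps the counts of all other genes as they were, so these totals cannot show that part.

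**Figure D2:**
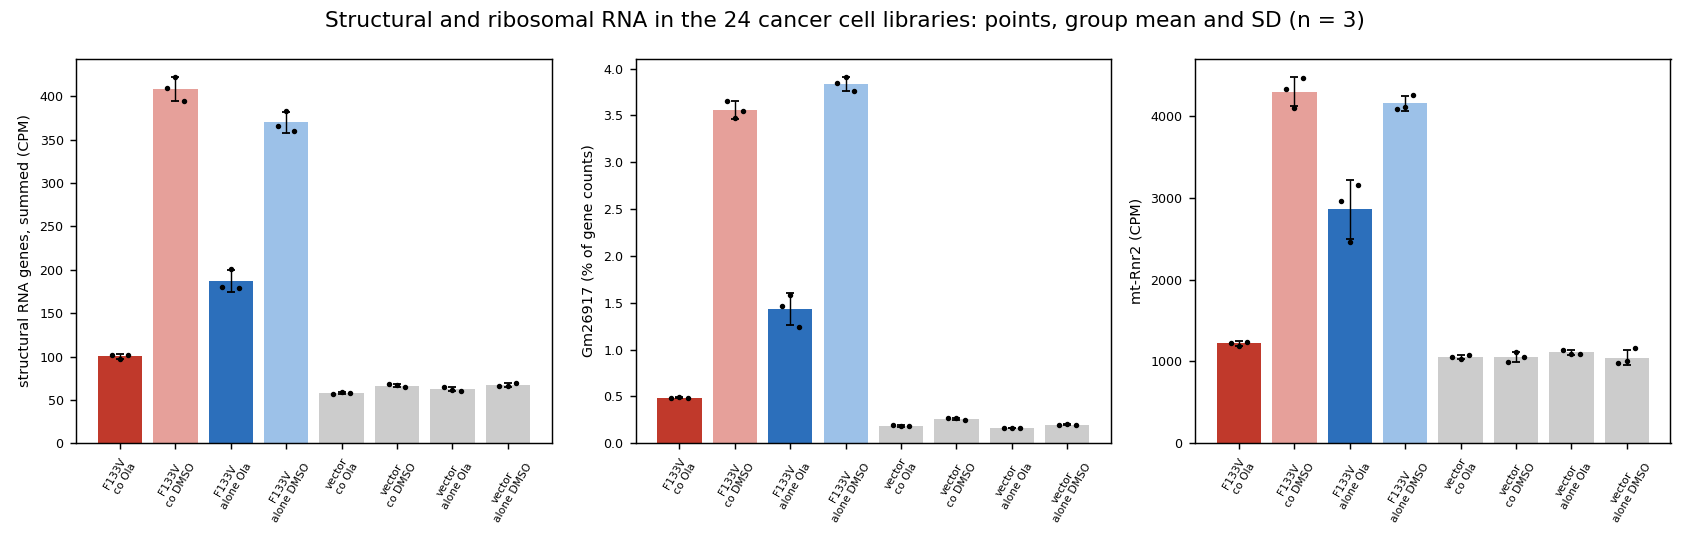
Summed structural RNA genes (CPM), Gm26917 (percent of gene counts) and mt-Rnr2 (CPM) in the 24 cancer cell libraries. Bars are group means, lines the SD of 3 libraries and dots the libraries; the 4 F133V groups are on the left of each panel, and both F133V groups with DMSO are high, at 409 and 370 CPM of structural RNA.

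The interaction was broad. Of 15962 genes tested, 10289 were called (64.5%), 5257 positive (32.9%) and 5032 negative (31.5%), and 2829 were at least 2-fold, of which 1706 were positive. The median over all genes tested was 0.02. Scaled by library size alone, 61.4% of called interactions were positive, against 51.1% with TMM, and for the olaparib effects in coculture and alone 63.5% and 74.6% of calls were positive, against 51.5% and 50.5%. In coculture olaparib called 12185 genes (76.3%), 39.3% of all genes being higher and 37% lower, and 4024 changed by 2-fold or more. In cells alone it called 5772 (36.2%), with 18.2% of all genes higher and 17.9% lower, and 317 changed by 2-fold or more. The largest class of called interactions, 2847 genes or 27.7%, was higher with olaparib in coculture and not called alone. Over all 15962 genes tested, called interactions or not, that class held 3595. Its mirror image, lower in coculture and not called alone, held 2660 called interactions or 25.9%, against 3375 of all genes tested. A further 1835 were higher with olaparib in both settings with a positive interaction, and 1813 lower in both with a negative one. Over all genes tested, 2328 were higher in both and 2246 lower in both. In 641 genes olaparib moved the level in opposite directions, 357 up in coculture and down alone and 284 the other way. The counts of such genes over all genes tested were the same. In bulk libraries fewer cells with a transcript and less transcript per cell cannot be told apart.

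**Figure D3:**
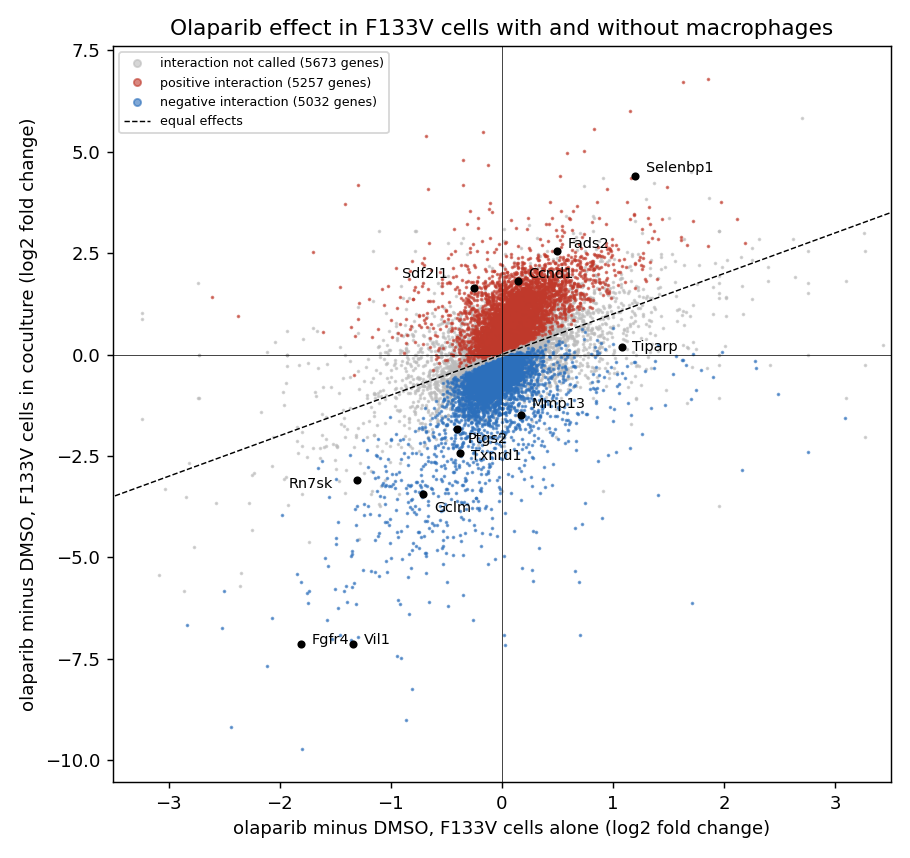
Log2 change with olaparib in F133V cells in coculture (vertical) and alone (horizontal), 1 point per gene tested, on axes of different length. Red and blue points are the 5257 positive and 5032 negative interactions, grey points were not called, the dashed line marks equal effects, and most called genes spread further along the vertical axis than along the horizontal one.

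The sets of libraries that stood apart differed between genes. Among the 10289 called interactions all 3 coculture DMSO libraries lay outside the other 9 in 7723 genes (75.1%, against 54.6% of all genes tested), 3918 above and 3805 below. All 3 coculture olaparib libraries lay outside the other 9 in 39.9% of them, against 29.4% of all genes, 2235 above and 1872 below. Antioxidant, heat shock and ribosome biogenesis genes were mostly of the first kind, at 81.1%, 90.5% and 82.5% of the genes tested. Genes of protein folding in the endoplasmic reticulum, sterol synthesis and glycolysis were mostly of the second, at 82.6%, 88.6% and 82.5%. A gene can be of both kinds, and the second also held 67.5% of ribosome biogenesis, 45.9% of antioxidant and 42.9% of heat shock genes. Over all 15962 genes tested, the coculture DMSO libraries lay above the other 9 in 4447 and below them in 4276. The coculture olaparib libraries lay above the other 9 in 2586 and below them in 2102. The counts of libraries above or below given for a list can be read against these. Each list count of interactions can be read against the 32.9% positive, 31.5% negative and median of 0.02 over all genes.

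**Figure D4:**
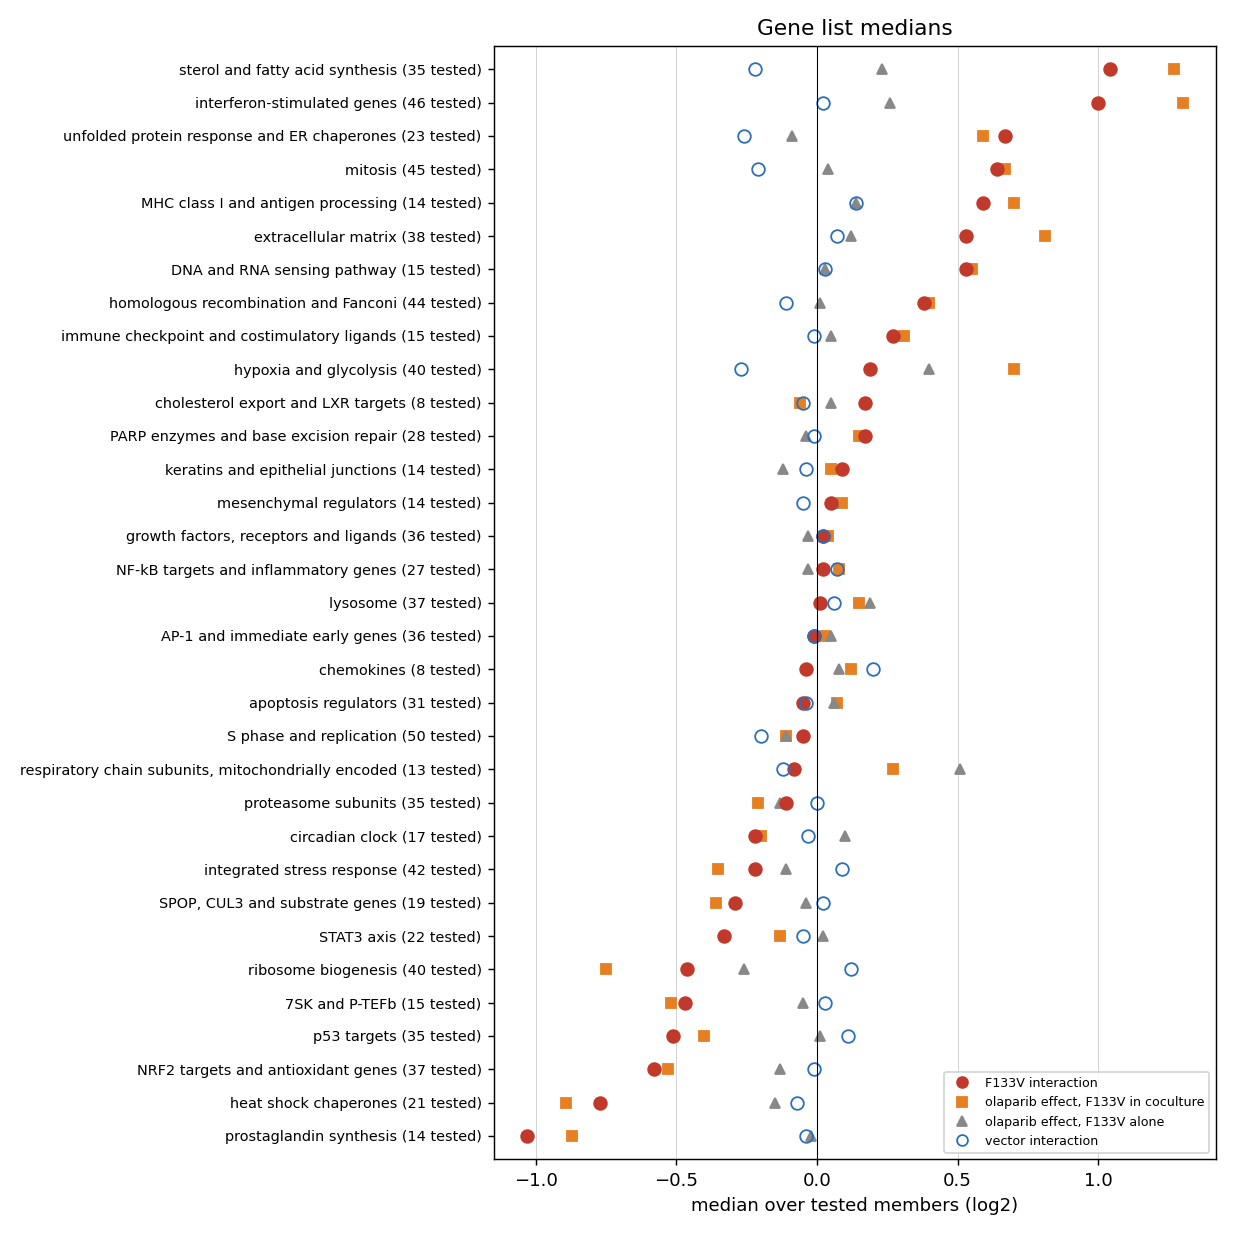
Median log2 value over the tested members of 33 gene lists, sorted by the F133V interaction (filled circles), with the olaparib effect in F133V cells in coculture (squares) and alone (triangles) and the vector interaction (open circles). The F133V interaction runs from −1.03 for prostaglandin synthesis to 1.04 for sterol and fatty acid synthesis, while the vector interaction stays between −0.27 and 0.20 in these 33. Lists of cell type markers are not drawn, among them the macrophage markers, whose 13 tested genes had a median of −0.62 in F133V and 1.88 in vector cells.

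Antioxidant genes had the lower side of the interaction. NRF2 is the transcription factor that switches on glutathione and thioredoxin genes when cells meet oxidants or electrophiles. Of 37 genes tested in a list of NRF2 targets and antioxidant genes, 26 had a negative and 7 a positive interaction. Their median was −0.58 (−0.53 in coculture and −0.13 alone). Gclm, the modifier subunit of the enzyme that makes the precursor of glutathione (chromosome 3, 122245557 to 122270732, plus strand, GRCm38), had 31.7, 31.2 and 30.7 CPM in coculture with olaparib and 332, 353 and 332 with DMSO. Cells alone had 76.7, 73.9 and 74.8 CPM with olaparib and 121, 126 and 121 with DMSO. Coculture thus held both extremes, DMSO above all other libraries and olaparib below them. The interaction was −2.73 ± 0.04 (edgeR adjusted p = 6.5e-35), from a change of −3.44 ± 0.03 in coculture and −0.71 ± 0.03 alone.

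Txnrd1, thioredoxin reductase (chromosome 10, 82833951 to 82897712, plus strand, GRCm38), followed the same order at a higher level. It read 353, 344 and 347 CPM in coculture with olaparib and 1870, 1910 and 1845 with DMSO, and 548, 559 and 534 alone with olaparib and 712, 710.1 and 711 alone with DMSO. No 2 groups overlapped. Its interaction was −2.05 ± 0.03 (edgeR adjusted p = 7.3e-37). Gsr, glutathione reductase, had an interaction of −1.83 ± 0.05, and Pgd, which makes NADPH in the pentose phosphate pathway, of −1.21 ± 0.03. For Slc7a11, the cystine importer that feeds glutathione synthesis, the levels were 666, 651 and 657 CPM in coculture with olaparib and 2046, 2041 and 2114 with DMSO, against 649, 584 and 633 alone with olaparib and 744, 751 and 769.8 alone with DMSO. Here only coculture with DMSO stood apart, and olaparib brought cocultured cells into the range of cells alone (−1.37 ± 0.04).

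The promoter of Gclm is shown because it holds a match to the core of the antioxidant response element, the site that NRF2 binds. The 250 bases before the RefSeq transcription start (build GRCm38.p6, plus strand, chr3:122245307-122245556) are printed 5′ to 3′, with the match (TGAC and GC with 3 bases of any kind between them), here on the other strand, in capitals.
Gclm: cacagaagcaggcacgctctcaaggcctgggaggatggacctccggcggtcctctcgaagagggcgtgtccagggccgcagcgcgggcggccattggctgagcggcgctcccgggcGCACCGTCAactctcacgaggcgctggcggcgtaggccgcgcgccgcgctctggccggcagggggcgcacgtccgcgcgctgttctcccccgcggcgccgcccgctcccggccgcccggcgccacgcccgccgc
Such a match stood in the same window of 10.1% of 27025 promoters and of 6 of 31 promoters of the NRF2 list, namely Gclm, Prdx1, Abcc4, Nfe2l2, Ugdh and G6pdx, named for the match after values were seen. Of these 6 the interaction of G6pdx was positive (0.48, edgeR adjusted p = 1.76e-12) and the others were negative, all called. The pattern is short and common, and a match is a description of the letters, not a measured site.

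Prostaglandin synthesis had the most negative median, −1.03, with 8 of 14 genes negative and 3 positive. This list shares members with others: Abcc4 (−1.03 ± 0.03) is also in the NRF2 list and Ptgs2 in the NF-kB list. Ptgs2, the inducible cyclooxygenase COX-2 (chromosome 1, 150100031 to 150108227, plus strand, GRCm38), read 1059, 1049 and 1064 CPM in coculture with olaparib and 3669, 3731 and 3838 with DMSO. In cells alone it read 994, 931 and 1005 with olaparib and 1282, 1271 and 1323 with DMSO. Only coculture with DMSO was high, and the coculture olaparib libraries lay between those of cells alone with olaparib and with DMSO. The interaction was −1.42 ± 0.04 (edgeR adjusted p = 8.7e-29). Akr1b3, aldose reductase, which also acts on prostaglandin intermediates, read 84.4, 84.0 and 86.8 CPM in coculture with olaparib and 1176, 1218 and 1183 with DMSO, against 107, 106 and 99.2 alone with olaparib and 263, 262 and 257 alone with DMSO. Its interaction of −2.49 ± 0.04 came from falls of 3.81 and 1.32 on the log2 scale, so olaparib lowered it in both settings.

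All 21 heat shock chaperone genes tested had a negative interaction, with a median of −0.77. These genes, driven by the factor HSF1, help the folding of cytosolic proteins. Olaparib lowered all 21 in coculture (median −0.89) and 18 alone (median −0.15), and in 19 the coculture DMSO libraries lay above the other 9. Hsph1, a nucleotide exchange factor of the HSP70 system, read 238, 242 and 248 CPM in coculture with olaparib and 797, 816 and 806 with DMSO, and 225, 228 and 224 alone with olaparib and 281, 276 and 278 alone with DMSO. The coculture DMSO values were the high ones (−1.43 ± 0.03, edgeR adjusted p = 3.5e-31). Hspa4l, of the same family, had an interaction of −1.65 ± 0.04, the co-chaperone Dnaja1 of −1.09 ± 0.04 and Hsp90ab1, the constitutive HSP90 beta, of −0.73 ± 0.03. The letters of the heat shock element (GAA, TTC and GAA, each pair 2 bases apart) stood within 250 bases before the start of 1 of 16 promoters of the list and of 0.4% of all promoters.

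Ribosome biogenesis showed the same side. Of 40 genes, 35 were negative and 1 positive (median −0.46), and in 32 coculture with DMSO lay above the other 9 libraries. Nob1, which cleaves the precursor of 18S ribosomal RNA, read 54.8, 53.4 and 52.7 CPM in coculture with olaparib and 159, 164 and 160.2 with DMSO, against 59.9, 61.4 and 56.2 alone with olaparib and 80.9, 77.1 and 77.8 alone with DMSO (−1.18 ± 0.04). The coculture DMSO libraries were above and the coculture olaparib libraries below all others. The nucleolar proteins Npm1, Ddx21 and Utp20 had interactions of −0.85 ± 0.04, −0.81 ± 0.03 and −0.86 ± 0.04. Proteasome subunits went the same way less uniformly, with 18 of 35 negative and 7 positive (median −0.11, and 0.02 scaled by library size alone).

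The 7SK and P-TEFb list, which covers the RNA and proteins that hold back or release transcription elongation, was negative in 11 of 15 genes and positive in 2 (median −0.47). Rn7sk is the 7SK RNA itself (chromosome 9, 78175303 to 78175633, minus strand, GRCm38). It read 31.6, 29.4 and 32.4 CPM in coculture with olaparib and 262, 281 and 258 with DMSO, and 76.5, 81.6 and 70.6 alone with olaparib and 188, 189 and 187 alone with DMSO. No groups overlapped, and olaparib lowered it in both settings, by 3.10 in coculture and by 1.30 alone on the log2 scale (−1.80 ± 0.06, edgeR adjusted p = 5.4e-26). It belongs to the structural RNA described above. The messenger RNAs moved too: Ccnt1, cyclin T1 of P-TEFb, had an interaction of −1.52 ± 0.04, Mepce, the capping enzyme of 7SK, of −1.02 ± 0.05 and Brd2, a bromodomain protein, of −0.78 ± 0.03. Genes of SPOP, its cullin and its known substrates were negative in 12 of 19 cases and positive in 3 (median −0.29). Brd2 is among them, whereas Spop had a small positive interaction (0.28 ± 0.05, edgeR adjusted p = 1.3e-06).

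Stress responses divided. The integrated stress response, through which ATF4 raises amino acid and repair genes, was negative in 25 of 42 genes and positive in 13 (median −0.22). Atf5 and Ppp1r15b, a transcription factor and a phosphatase subunit of that pathway, had interactions of −0.92 ± 0.04 and −0.91 ± 0.03. Ddit3, the transcription factor CHOP of the same response, went the other way and read 651, 659 and 648 CPM in coculture with olaparib and 346, 348 and 344 with DMSO, and 504, 527 and 519.8 alone with olaparib and 552, 560.5 and 540.1 alone with DMSO. Coculture thus held the highest and the lowest values of Ddit3 (1.01 ± 0.03, edgeR adjusted p = 5e-27).

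Genes of the unfolded protein response, which expands the folding capacity of the endoplasmic reticulum, had mostly positive interactions: 19 of 23 positive and 3 negative, median 0.67. Olaparib raised 19 of them in coculture and lowered 4 (median 0.59), whereas alone it raised none and lowered 17 (median −0.09). In 19 the coculture olaparib libraries lay above the other 9. Sdf2l1, a luminal protein of the chaperone complex (chromosome 16, 17130138 to 17132383, minus strand, GRCm38), read 124, 119 and 122 CPM in coculture with olaparib and 39.9, 40.2 and 37.1 with DMSO. Alone it read 41.2, 40.8 and 39.6 with olaparib and 48.3, 49.7 and 46.6 with DMSO. Only coculture with olaparib was high (1.88 ± 0.06, edgeR adjusted p = 7.2e-27).

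Creld2, a secreted protein of the same response, read 200.5, 203 and 204 CPM in coculture with olaparib and 77.5, 82.7 and 77.6 with DMSO, against 56.3, 56.9 and 56.7 alone with olaparib and 65.7, 68.9 and 63.0 alone with DMSO (1.57 ± 0.05). Dnajc3, a J-domain co-chaperone of the lumen, had 253, 249 and 258 CPM in coculture with olaparib and 97.0, 99.1 and 98.6 with DMSO, against 111, 104 and 113 alone with olaparib and 116, 115 and 118 alone with DMSO (1.46 ± 0.04). Both were highest in coculture with olaparib, without overlap. Manf, a secreted survival factor of stressed cells, had an interaction of 1.16 ± 0.03. Hspa5, the main luminal chaperone BiP and named here after its values were seen for its promoter, had 4860, 4860 and 4940 CPM in coculture with olaparib and 3730, 3900 and 3770 with DMSO, against 2330, 2390 and 2250 alone with olaparib and 2690, 2630 and 2660 alone with DMSO (0.56 ± 0.03). Both cocultures were above both groups grown alone, and olaparib moved Hspa5 up in coculture (0.36) and down alone (−0.20).

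Promoters of this list are shown because some members hold an endoplasmic reticulum stress element, the site of the factors ATF6 and NF-Y. It was taken as CCAAT and CCACG with 9 bases of any kind between them. Each line is the 250 bases before the RefSeq start (build GRCm38.p6), 5′ to 3′ on the gene's strand, with the match on either strand in capitals. The windows are chr15:88819396-88819645 for Creld2, chr14:118937682-118937931 for Dnajc3 and chr2:34771840-34772089 for Hspa5, all on the plus strand.
Creld2: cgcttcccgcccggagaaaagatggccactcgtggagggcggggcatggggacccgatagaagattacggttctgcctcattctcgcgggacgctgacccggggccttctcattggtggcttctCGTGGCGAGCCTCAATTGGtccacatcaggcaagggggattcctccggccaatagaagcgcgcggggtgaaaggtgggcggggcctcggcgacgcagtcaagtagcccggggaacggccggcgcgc
Dnajc3: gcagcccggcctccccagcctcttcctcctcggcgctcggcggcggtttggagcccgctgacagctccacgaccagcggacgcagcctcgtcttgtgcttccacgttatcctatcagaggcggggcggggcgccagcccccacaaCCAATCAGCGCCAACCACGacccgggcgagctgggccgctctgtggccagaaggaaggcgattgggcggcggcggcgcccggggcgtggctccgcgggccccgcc
Hspa5: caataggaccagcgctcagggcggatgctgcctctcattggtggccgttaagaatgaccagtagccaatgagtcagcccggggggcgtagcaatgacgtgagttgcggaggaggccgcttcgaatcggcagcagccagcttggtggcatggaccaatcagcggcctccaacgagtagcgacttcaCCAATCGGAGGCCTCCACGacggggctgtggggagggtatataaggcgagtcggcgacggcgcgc
The match in Creld2 reads on the minus strand, and those in Dnajc3 and Hspa5 on the plus strand. In this window the element was present in 33 of 27025 promoters (0.122%) and in 8 of the 19 promoters matched for this list, namely those of Hspa5, Hsp90b1, Calr, Canx, Pdia6, Dnajc3, Creld2 and Syvn1, named for the match after values were seen. Of these 8 genes, 7 had a called positive interaction and Canx a small negative one (−0.115, edgeR adjusted p = 0.0015), which was 0.02 and not called scaled by library size alone. The list was written from genes known for this response, many of which were found through the element.

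Sterol and fatty acid synthesis had the most positive median. The list covers genes driven by SREBP, the factor that answers low membrane cholesterol and lipid. Of 35 genes, 30 were positive and 2 negative (median 1.04). Olaparib raised 32 in coculture (median 1.27) and 23 alone (median 0.23), and in 31 the coculture olaparib libraries were above the other 9. Scd2, a stearoyl-CoA desaturase (chromosome 19, 44293674 to 44306864, plus strand, GRCm38), read 2258, 2246 and 2227 CPM in coculture with olaparib and 434, 431 and 434 with DMSO, and 442, 429 and 426 alone with olaparib and 258, 254 and 262 alone with DMSO. Coculture with olaparib was several times above the rest, while coculture with DMSO and monoculture with olaparib overlapped (1.62 ± 0.03, edgeR adjusted p = 3e-34).

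Fads2, a desaturase of polyunsaturated fatty acids, had 106, 107 and 105 CPM in coculture with olaparib and 17.4, 18.6 and 18.2 with DMSO, against 21.0, 18.9 and 23.2 alone with olaparib and 13.9, 16.0 and 14.7 alone with DMSO (2.05 ± 0.07). Lss, lanosterol synthase of the cholesterol pathway, had an interaction of 1.39 ± 0.05 and Scd1, the sister desaturase, of 1.23 ± 0.03. Acacb, which makes the malonyl-CoA that blocks fatty acid oxidation, went far the other way. It read 0.0253, 0.282 and 0.217 CPM in coculture with olaparib and 14.0, 12.1 and 12.1 with DMSO, against 0.997, 1.06 and 0.805 alone with olaparib and 1.79, 2.98 and 2.31 alone with DMSO (−4.82 ± 0.36). Apoe, which carries cholesterol out of cells, also had a negative interaction (−1.94 ± 0.09). The letters of a sterol response element (TCAC and CCAC with 1 base between them) stood in 1 of 24 promoters of the sterol list and in 1.04% of all promoters.

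**Figure D5:**
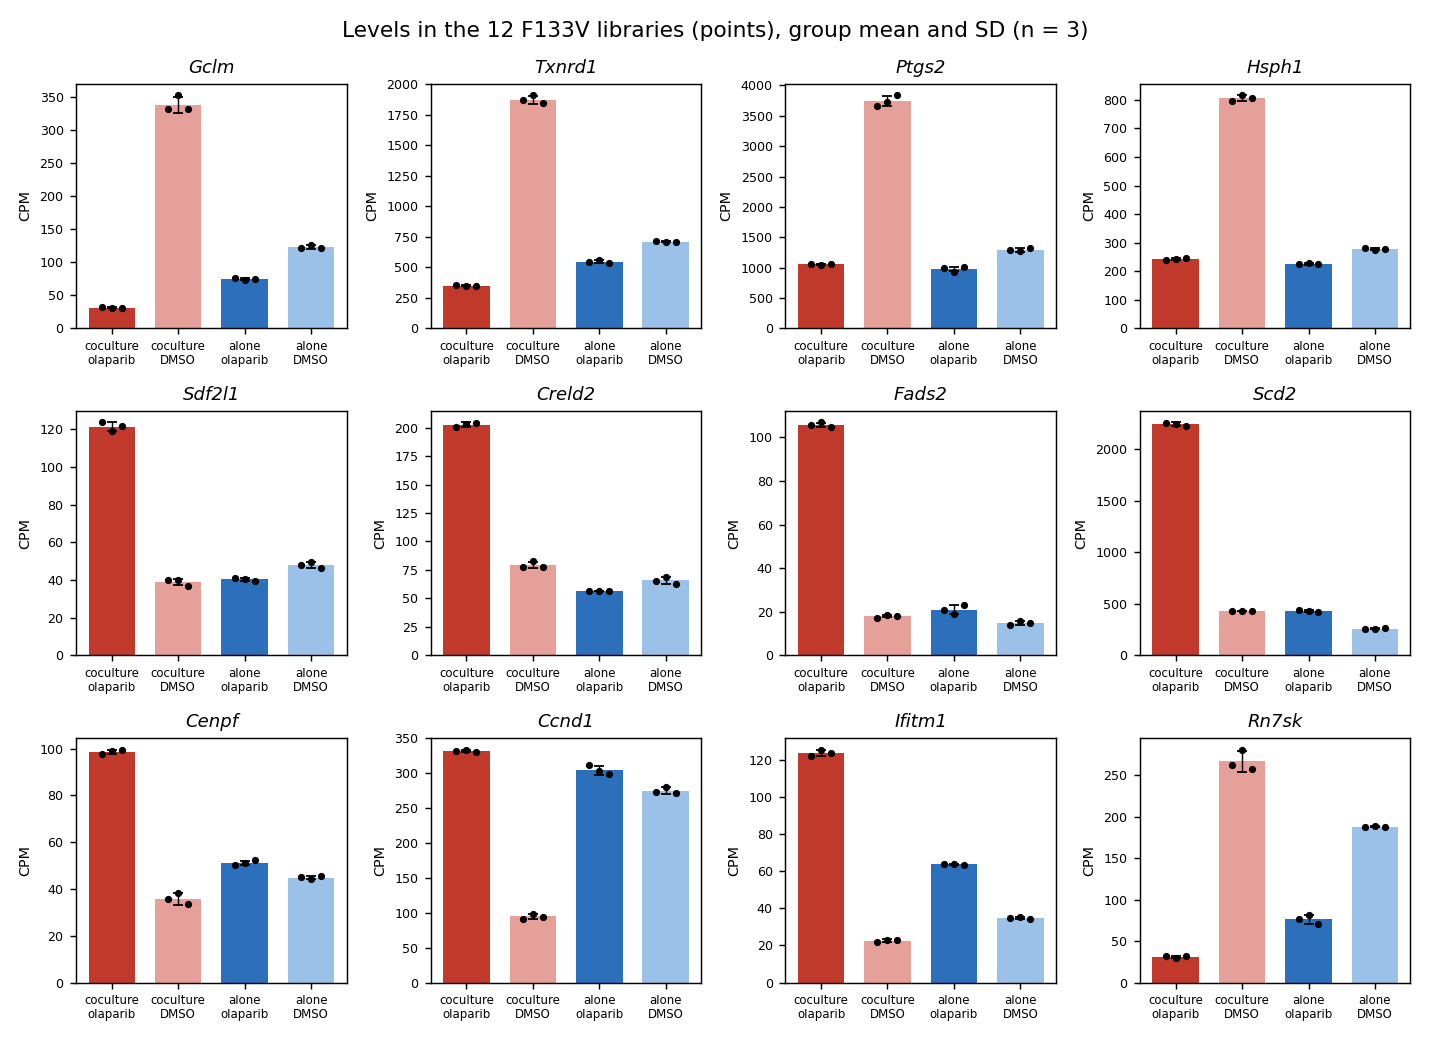
CPM of 12 genes in the 12 F133V libraries: bars are group means from 0, lines the SD of 3 libraries and dots the libraries, with coculture on the left and cells alone on the right of each panel. Gclm, Txnrd1, Ptgs2, Hsph1 and Rn7sk were highest in coculture with DMSO, Sdf2l1, Creld2, Fads2, Scd2, Cenpf and Ifitm1 were highest in coculture with olaparib, and Ccnd1 was lowest in coculture with DMSO.

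Glycolysis and hypoxia genes rose with olaparib in both settings, 32 of 40 in coculture (median 0.70) and 32 alone (median 0.40). Their interaction was smaller, with 22 positive and 10 negative and a median of 0.19, which turned to −0.02 once trends on gene length and GC content were removed. Tpi1, triosephosphate isomerase, read 1247, 1269 and 1248 CPM in coculture with olaparib and 607, 628 and 608 with DMSO, and 602, 616 and 601 alone with olaparib and 507, 506 and 498 alone with DMSO (0.76 ± 0.03). Slc16a3, the lactate exporter, had an interaction of 0.73 ± 0.03. Kdm3a, a histone demethylase raised in hypoxia, read 197, 194 and 200.2 CPM in coculture with olaparib and 452, 466 and 455 with DMSO, against 165, 166 and 163 alone with olaparib and 159, 160 and 166 alone with DMSO. It was highest in coculture with DMSO (−1.24 ± 0.04), unlike the enzymes of glycolysis named here. Coculture with olaparib also lay above cells alone.

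Interferon-stimulated genes, the antiviral programme that type I and II interferons switch on through STAT proteins, were positive in 34 of 46 cases and negative in 1, with a median of 1.00. Olaparib raised 40 in coculture (median 1.30) and 20 alone (median 0.26). In 34 the coculture olaparib libraries lay above the other 9, and in 19 the coculture DMSO libraries lay below them. Ifitm1, a membrane protein that blocks virus entry (chromosome 7, 140967221 to 140969825, plus strand, GRCm38), read 122, 125 and 124 CPM in coculture with olaparib and 21.6, 22.96 and 22.97 with DMSO, and 63.8, 64.0 and 63.5 alone with olaparib and 34.7, 35.3 and 34.4 alone with DMSO. Groups did not overlap, and olaparib raised it in both settings, by 2.46 in coculture and 0.87 alone (1.58 ± 0.04, edgeR adjusted p = 1.4e-27). Its relative Ifitm3 had an interaction of 1.04 ± 0.05 and Tor3a, an ATPase raised by interferon, of 1.23 ± 0.06.

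Some classical members were low in all 4 groups. Isg15, the ubiquitin-like modifier and named after its values were seen for its promoter, had 7.13, 6.27 and 6.74 CPM in coculture with olaparib and 1.74, 1.78 and 1.60 with DMSO, against 1.32, 1.18 and 0.954 alone with olaparib and 0.835, 1.18 and 1.03 alone with DMSO. Coculture with olaparib stood above the other groups (1.79 ± 0.24, edgeR adjusted p = 2.2e-08). Its promoter is shown for the 3 overlapping matches to GAAA repeated after 2 bases of any kind, the core of the interferon-stimulated response element, in capitals (RefSeq, build GRCm38.p6, chr4:156200819-156201068, 5′ to 3′ on the gene's minus strand).
Isg15: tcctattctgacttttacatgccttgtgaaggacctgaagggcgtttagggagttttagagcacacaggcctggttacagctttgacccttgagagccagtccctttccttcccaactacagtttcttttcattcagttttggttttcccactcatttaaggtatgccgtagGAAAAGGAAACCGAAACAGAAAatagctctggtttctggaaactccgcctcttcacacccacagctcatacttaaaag
A match on either strand was present in 3.04% of 27025 promoters and in 13 of the 35 matched promoters of this list. Several members with a match, such as Oas3, Gbp2 and Gbp3, named likewise, were not called, though Oas3 was called in 6 of 21 alternative settings. Of the interferon and cytokine genes themselves, Ifnb1, Il6, Tnf and Cxcl10 had too few counts to be tested.

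The sensing genes upstream of interferon were positive in 8 of 15 cases and negative in 1 (median 0.53). Ddx58, the RNA sensor RIG-I, read 34.9, 33.1 and 33.3 CPM in coculture with olaparib and 13.1, 13.7 and 11.6 with DMSO. Cells alone had 18.4, 19.4 and 19.3 CPM with olaparib and 13.8, 14.7 and 15.4 with DMSO. Coculture with olaparib was highest, and olaparib raised Ddx58 in both settings, by 1.39 in coculture and 0.38 alone (1.01 ± 0.08). Ifi204, a DNA sensor of the same family as human IFI16, had an interaction of 1.24 ± 0.08, Irf3, the factor that turns on interferon genes, of 0.80 ± 0.06 and Tbk1, the kinase that activates IRF3, of −0.79 ± 0.05. The cGAS and STING genes, Mb21d1 and Tmem173, were not called. Their interactions were −0.10 ± 0.13 (edgeR adjusted p = 0.52) and −0.09 ± 0.06 (edgeR adjusted p = 0.19), the second called at −0.34 once length and GC trends were removed.

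The class I antigen presentation list was positive in 8 of 14 cases and negative in 3 (median 0.59). Psme1 and Psme2, subunits of the proteasome activator, had interactions of 0.65 ± 0.05 and 0.77 ± 0.05. Psme2 read 61.4, 64.4 and 61.8 CPM in coculture with olaparib and 36.4, 35.2 and 36.7 with DMSO, and 63.4, 65.1 and 59.1 alone with olaparib and 60.5, 61.0 and 63.0 alone with DMSO, so its low values were those of coculture with DMSO. H2-K1, a class I heavy chain whose counts are uncertain because related genes share its sequence, had an interaction of 0.65 ± 0.04. Tapbp, the tapasin that loads peptides, went the other way (−0.67 ± 0.05).

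Inflammatory lists moved in both directions. NF-kB targets were positive in 11 and negative in 11 of 27 cases, with a median of 0.02 that changed sign under several settings. Nfkb2, the precursor of the p52 subunit, and Ier3, an early response gene, had interactions of −0.81 ± 0.04 and −0.97 ± 0.05. Ier3 read 106, 106 and 99.0 CPM in coculture with olaparib and 194, 210.4 and 200.2 with DMSO, against 46.1, 46.2 and 40.9 alone with olaparib and 44.5, 43.4 and 44.1 alone with DMSO, so both cocultures were above cells alone. Tnfaip2, induced by TNF, had a positive interaction (0.54 ± 0.04). Genes of the STAT3 axis were negative in 12 of 22 cases and positive in 9 (median −0.33). Stat3 itself read 81.8, 79.8 and 77.5 CPM in coculture with olaparib and 126, 131 and 126 with DMSO, and 64.5, 67.8 and 70.8 alone with olaparib and 73.8, 69.7 and 67.6 alone with DMSO. Coculture with DMSO was the highest, and coculture with olaparib also lay above cells alone (−0.63 ± 0.05, edgeR adjusted p = 5.6e-15). The kinase Pim3 had an interaction of −1.10 ± 0.06, the survival factor Mcl1 of −0.70 ± 0.03 and the cytokine signalling inhibitor Socs2 of 1.25 ± 0.08.

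Signals from the cancer cell to macrophages and T cells were read gene by gene. Cx3cl1, fractalkine, which attracts cells with the receptor CX3CR1, read 49.4, 52.8 and 50.5 CPM in coculture with olaparib and 12.8, 13.9 and 12.7 with DMSO, and 18.9, 21.2 and 18.8 alone with olaparib and 16.2, 16.5 and 16.8 alone with DMSO. It was highest in coculture with olaparib, and olaparib raised it in both settings, by 1.95 in coculture and 0.25 alone (1.70 ± 0.07, edgeR adjusted p = 2.2e-22). Of 8 chemokines tested, 2 were positive and 1 negative. Ccl2, the main attractant of monocytes, read between 1.79 and 2.48 CPM in the 6 coculture libraries and between 0.350 and 0.762 CPM in the 6 libraries of cells alone, and its interaction was not called (0.21 ± 0.32, edgeR adjusted p = 0.58).

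Cd47, the surface protein that restrains phagocytosis by macrophages, read 98.1, 98.8 and 98.6 CPM in coculture with olaparib and 31.4, 31.6 and 30.9 with DMSO, and 79.8, 79.9 and 80.6 alone with olaparib and 68.9, 67.2 and 72.6 alone with DMSO. Its lowest values were in coculture with DMSO and its highest in coculture with olaparib (1.45 ± 0.04, edgeR adjusted p = 2.1e-26). Tnfsf4, the T cell costimulator OX40 ligand, had the reverse order, with 1.92, 1.86 and 1.93 CPM in coculture with olaparib and 18.9, 19.9 and 18.2 with DMSO, against 7.11, 7.99 and 6.77 alone with olaparib and 8.14, 7.17 and 6.86 alone with DMSO (−3.30 ± 0.14). Cd274, the checkpoint ligand PD-L1, had an interaction of −0.29 ± 0.11 (edgeR adjusted p = 0.019), which was not called in 5 of 21 alternative settings. Csf1, the growth factor of macrophages, read 196, 195 and 198 CPM in coculture with olaparib and 175, 185 and 182 with DMSO, and 279.9, 278 and 277 alone with olaparib and 331, 329 and 326 alone with DMSO. Both cocultures were below both groups alone, and olaparib raised it in coculture (0.12) and lowered it alone (−0.24).

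Cell division genes were positive. Of 45 mitosis genes 40 had a positive and 2 a negative interaction (median 0.64), and olaparib raised 41 in coculture (median 0.67) and 11 alone (median 0.04). Cenpf, a kinetochore protein, read 97.8, 99.0 and 99.4 CPM in coculture with olaparib and 35.7, 38.5 and 33.5 with DMSO, and 50.3, 51.0 and 52.2 alone with olaparib and 45.1, 44.2 and 45.4 alone with DMSO. The lowest group was coculture with DMSO and the highest coculture with olaparib (1.27 ± 0.05, edgeR adjusted p = 2.4e-23). Mki67, the proliferation antigen Ki-67, had an interaction of 0.79 ± 0.06, Top2a, the topoisomerase of dividing cells, of 0.78 ± 0.04 and Cenpa, the histone of centromeres, of 0.66 ± 0.05. In the 250 bases before the start, 12 of 37 mitosis promoters held the cell cycle homology letters TTTGAA, against 16.3% of all promoters, and 28 held CCAAT, which also opens the stress element above, against 34.5%. S phase genes were divided, 18 of 50 positive and 15 negative, with a median of −0.05 that was 0.08 scaled by library size alone. Pcna, the sliding clamp of DNA polymerase, had an interaction of −0.99 ± 0.05, against 1.10 ± 0.06 for Rfc2, a subunit of the clamp loader, and 0.60 ± 0.05 for Rrm2, a subunit of ribonucleotide reductase.

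Ccnd1, cyclin D1 of the entry into the cell cycle (chromosome 7, 144929931 to 144939925, minus strand, GRCm38), read 332, 334 and 331 CPM in coculture with olaparib and 91.7, 98.6 and 94.1 with DMSO, and 311, 303 and 299 alone with olaparib and 273, 281 and 272 alone with DMSO. Only coculture with DMSO was low, and olaparib in coculture gave the highest values (1.66 ± 0.03, edgeR adjusted p = 7.2e-32). Targets of p53, the factor that stops the cycle after DNA damage, were negative in 25 of 35 cases and positive in 2 (median −0.51). Cdkn1a, the cycle inhibitor p21, read 263, 257 and 259 CPM in coculture with olaparib and 398, 416 and 402 with DMSO, and 309, 319 and 296 alone with olaparib and 307, 304 and 293 alone with DMSO. Olaparib lowered it in coculture and was not called alone (−0.67 ± 0.03). Eda2r, a death-domain receptor, had an interaction of −1.90 ± 0.05, the nuclease Aen of −1.40 ± 0.05 and Gdf15, a stress cytokine, of −1.52 ± 0.06. In 20 of the 35 the coculture olaparib libraries lay below the other 9, against 2102 of all 15962 genes tested. Myc, a transcription factor of growth, had an interaction of −0.41 ± 0.06.

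Genes of homologous recombination and the Fanconi pathway, on which cells rely when PARP is blocked, were positive in 27 of 44 cases and negative in 7 (median 0.38). Mus81, a nuclease that resolves joined DNA, read 22.8, 22.4 and 22.6 CPM in coculture with olaparib and 6.74, 6.65 and 5.49 with DMSO, and 17.4, 18.8 and 16.9 alone with olaparib and 16.7, 15.6 and 15.6 alone with DMSO. The low group was coculture with DMSO (1.69 ± 0.09, edgeR adjusted p = 1.5e-18). The helicase Wrn and the break sensor Rad50 had interactions of 1.07 ± 0.08 and 0.64 ± 0.06, while Cdk12, the kinase that sustains transcription of long repair genes, had one of −0.73 ± 0.05.

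The targets of the drug were also measured. PARP enzymes and base excision repair genes were positive in 14 and negative in 10 of 28 cases, with a median of 0.17 that became −0.01 with length and GC trends removed. Parp1, the main enzyme inhibited by olaparib, read 141, 144 and 142 CPM in coculture with olaparib and 96.8, 101 and 99.97 with DMSO, and 103, 107 and 102 alone with olaparib and 109.7, 105 and 106 alone with DMSO. Olaparib raised it in coculture and was not called alone (0.56 ± 0.04, edgeR adjusted p = 2.1e-15). Parp3 had an interaction of 1.04 ± 0.05 and Parp2, the nearest relative of Parp1, of 0.29 ± 0.09, which was 0.15 and not called once length and GC trends were removed. Tiparp, a mono-ADP-ribosyl transferase induced by the aryl hydrocarbon receptor, differed in kind. It read 322, 324 and 327 CPM in coculture with olaparib and 276, 295 and 289.7 with DMSO, and 139.7, 129 and 136 alone with olaparib and 65.6, 62.3 and 63.9 alone with DMSO. Both cocultures were above cells alone, where olaparib raised it by 1.08, against 0.18 in coculture (−0.90 ± 0.04).

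Extracellular matrix genes were positive in 23 of 38 cases and negative in 9 (median 0.53), and in 21 the coculture DMSO libraries were below the other 9. Col3a1, a fibrillar collagen, read 153, 159 and 153 CPM in coculture with olaparib and 36.2, 36.7 and 34.2 with DMSO, and 67.0, 68.1 and 66.6 alone with olaparib and 50.5, 52.5 and 52.4 alone with DMSO, without overlap (1.74 ± 0.04, edgeR adjusted p = 2.3e-29). Fn1, fibronectin, had an interaction of 0.97 ± 0.03, Col5a1, a collagen that starts fibrils, of 1.64 ± 0.05 and Thbs2, a matrix protein that binds growth factors, of 1.06 ± 0.03. Epithelial genes were divided, 4 positive and 4 negative of 14. Dsp, desmoplakin of cell junctions, had an interaction of −2.26 ± 0.08 and Krt18, a keratin of simple epithelia, of −1.06 ± 0.05, while Krt15, a basal keratin, had one of 2.53 ± 0.07. Krt15 read 79.4, 79.3 and 75.5 CPM in coculture with olaparib and 11.8, 12.8 and 11.8 with DMSO, against 26.0, 26.3 and 24.2 alone with olaparib and 25.1, 21.8 and 22.4 alone with DMSO. Clock genes were negative in 8 of 17 cases and positive in 5 (median −0.22), led by Nr1d2, a repressor of the clock (−1.51 ± 0.05), and Clock (−1.15 ± 0.04).

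Genes with only a model name, such as Gm and digits or Rik, were left out of the rankings given here. The most negative interactions at 10 CPM or more in some group were of genes that were low outside coculture with DMSO. Vil1, the actin bundler villin, read 0.101, 0 and 0.121 CPM in coculture with olaparib and 10.6, 11.0 and 10.7 with DMSO, and 0.350, 0.739 and 0.716 alone with olaparib and 1.55, 1.41 and 1.58 alone with DMSO (−5.80 ± 0.47). Fgfr4, a receptor of fibroblast growth factors, read 0.228, 0.0235 and 0.0483 CPM in coculture with olaparib and 14.0, 14.8 and 13.2 with DMSO, against 0.377, 0.562 and 0.537 alone with olaparib and 1.73, 1.72 and 1.70 alone with DMSO (−5.32 ± 0.48). For both genes, as for Acacb, the coculture olaparib libraries were close to 0, and the fitted size depends on the prior count there. L1cam, a neural adhesion molecule, had a firmer base, with 0.758, 1.198 and 1.59 CPM in coculture with olaparib and 34.3, 33.1 and 32.6 with DMSO, against 4.07, 3.81 and 3.91 alone with olaparib and 6.95, 6.70 and 6.97 alone with DMSO (−4.001 ± 0.17, edgeR adjusted p = 6.6e-22). The most positive, again among genes at 10 CPM or more, was Selenbp1, an enzyme of methanethiol breakdown, with 17.3, 17.7 and 17.8 CPM in coculture with olaparib and 1.02, 0.807 and 0.606 with DMSO, against 5.58, 6.71 and 5.72 alone with olaparib and 2.45, 2.29 and 3.11 alone with DMSO (3.21 ± 0.18). Aldoc, a brain aldolase, and Slc2a6, a hexose transporter, were also among the 12 most positive and had interactions of 2.52 ± 0.14 and 2.52 ± 0.17.

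Among genes that olaparib moved in opposite directions, Mmp13, a collagenase, read 19.6, 20.0 and 21.2 CPM in coculture with olaparib and 54.0, 57.4 and 60.01 with DMSO, and 32.5, 29.4 and 32.9 alone with olaparib and 26.9, 29.3 and 28.0 alone with DMSO. Coculture with DMSO was high and coculture with olaparib low (−1.66 ± 0.07, edgeR adjusted p = 8.3e-23). Ppargc1a, a coactivator of mitochondrial genes, had changes of −1.54 ± 0.04 in coculture and 0.23 ± 0.04 alone, and Vwf, the clotting protein von Willebrand factor, of −1.51 ± 0.03 and 0.29 ± 0.03. Pdia5, a disulfide isomerase of the endoplasmic reticulum, had the opposite pair, 1.45 ± 0.05 in coculture and −0.22 ± 0.05 alone.

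The same interaction in vector cells was much smaller. It called 2186 genes (13.7%), 1144 positive (7.17%) and 1042 negative (6.53%), with 56 at least 2-fold. By library size alone 66.2% of calls were positive, against 52.3%. In 2 vector monoculture libraries with DMSO, Lyz2 read 3.57 and 4.60 CPM without TMM scaling. Without them fewer genes were called in the vector interaction, with only 1 library left in that group. The F133V and vector interactions differed in 8683 genes (54.4%), 4518 with a higher (28.3%) and 4165 with a lower (26.1%) value in F133V cells. All 21 heat shock genes had a lower interaction in F133V than in vector cells, and 36 of 40 ribosome biogenesis genes did, with 1 higher. In the sterol list 32 of 35 were higher with none lower, in the mitosis list 41 of 45 with 2 lower, in the unfolded protein list 19 of 23 with 1 lower and in the interferon list 33 of 46 with none lower. The unfolded protein genes had a negative interaction in vector cells (19 of 23 negative, median −0.26), as did sterol genes (26 of 35, median −0.22).

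The strongest differences by adjusted p, among genes at 10 CPM or more and without model names, were led by Txnrd1, Gclm and Akr1b3 on the lower side. The interaction of Txnrd1 was −2.05 ± 0.03 in F133V and 0.06 ± 0.03 in vector cells, a difference of −2.11 ± 0.04 (edgeR adjusted p = 1.6e-31). On the higher side stood Scd2, Ccnd1, Gys1, the glycogen synthase of muscle and most other cells, Preb, an exchange factor for vesicle export from the endoplasmic reticulum, and Ankrd44, an ankyrin repeat protein. Preb read 449, 456 and 453 CPM in F133V coculture with olaparib and 175, 175 and 173 with DMSO, against 389, 390 and 388 alone with olaparib and 391, 391 and 375 alone with DMSO. It was low only in coculture with DMSO, and its interaction was 1.36 ± 0.03 in F133V and −0.05 ± 0.03 in vector cells. For Csf1 the interaction was 0.36 ± 0.04 in F133V and 0.51 ± 0.04 in vector cells, and for Myc it had opposite signs, −0.41 ± 0.06 in F133V and 0.59 ± 0.09 in vector cells (difference −1.01 ± 0.10, edgeR adjusted p = 1.2e-10).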

How the data were processed

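Total RNA of 24 cancer cell and 12 macrophage libraries was sequenced by the authors after TRIzol extraction and a standard Illumina preparation, per the labels' protocols. The authors deposited raw read counts for 46078 genes per library, followed by 5 HTSeq summary lines, with no normalization. Build GRCm38 and the tools HTSeq, STAR, TopHat and DESeq2 are named in the submitters' processing notes; which aligner was used, any version and the strand setting were not given in the sources used here. Reads in no gene made up 17.15% to 20.88% of counted reads in the F133V libraries, ambiguous reads 1.282% to 1.364%, and the summary lines stayed out of all fits.

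The 24 cancer libraries in 8 groups were fitted together in edgeR 4.0.16 under R 4.3.3 (filterByExpr at a minimum count of 10, TMM, quasi-likelihood F test, 16 residual degrees of freedom), which left 15962 genes. The 5 comparisons were the interaction in F133V cells, its 2 olaparib effects, the interaction in vector cells and the difference of the interactions. P-values were adjusted by Benjamini-Hochberg over all genes of a comparison and called under 0.05. The SE is the size of the log2 value divided by the square root of F. Named genes were a panel, the 12 most positive and 12 most negative interactions at 10 CPM or more, for each list up to 4 called members of smallest adjusted p, the 8 smallest adjusted p of the F133V minus vector difference, and 6 with opposite olaparib effects. Apart from the panel and the lists, these selections left out model names (Gm and digits, Rik, accession-like names and -ps). The text names fewer than these allow, and the members and lists were chosen with earlier results of these data known. Positions are from GENCODE M21, and promoters from RefSeq (GRCm38.p6), of which 27025 had 250 bases before the start. Motifs, taken from general knowledge as short half-sites a fixed number of bases apart, were searched as plain letters on both strands. Shares of all promoters include genes not tested. Among 10039 promoters of tested genes they were 0.159% for the endoplasmic reticulum stress, 12.1% for the antioxidant and 0.319% for the heat shock element. They were 0.926% for the sterol and 2.44% for the interferon-stimulated element, 36.5% for CCAAT and 10.1% for TTTGAA. The procedure was tested on simulated data. A check of some listed markers of the cell line is not reported here. Alternatives were DESeq2 1.42.0, RLE and library-size scaling, no filter, protein-coding genes only, structural RNA left out, a replicate block, length and GC trends removed, the 12 F133V libraries only, each library left out, and 2 vector libraries left out. Plots were made in matplotlib 3.10.9 (Python 3.11.15).

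Without a known strand setting, counts are uncertain for named genes whose exons overlap another gene: Ankrd44, Atf5, Brd2, Ccnd1, Ccnt1, Cd274, Cdkn1a, Col3a1, Col5a1, Ddit3, Dnaja1, Dsp, Fn1, G6pdx, Gbp2, Gclm, Gys1, Hsp90b1, Irf3, L1cam, Lss, Manf, Mb21d1, Mus81, Nfkb2, Parp1, Parp3, Pdia6, Ppp1r15b, Preb, Psme1, Rfc2, Scd2, Stat3, Syvn1, Tapbp, Tiparp, Tnfaip2, Top2a, Tpi1, Ugdh and Vil1.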

Additional observations from a re-analysis of the deposited data

Results flagged for a closer look

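The F133V and vector interactions differed, by the test of the difference itself, in 8683 genes, and the 8 with the smallest adjusted p among named genes at 10 CPM or more are given here as log2 F133V minus vector. The lower ones were Gclm at −2.71, Akr1b3 at −2.44 and Txnrd1 at −2.11. The higher ones were Ankrd44 at 1.96, Gys1 at 1.92, Scd2 at 1.86, Ccnd1 at 1.72 and Preb at 1.41. In F133V cells Gys1 read 251, 248 and 251 CPM in coculture with olaparib and 57.1, 61.0 and 59.2 with DMSO, against 117, 125 and 119 alone with olaparib and 79.8, 76.9 and 74.4 alone with DMSO. Ankrd44 read 195, 201 and 202 CPM in coculture with olaparib and 31.5, 30.7 and 31.7 with DMSO, against 72.2, 71.7 and 71.2 alone with olaparib and 37.8, 37.1 and 37.4 alone with DMSO. Both were raised by olaparib in either setting, more in coculture, and highest there without overlap.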

How the results depend on the processing

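Counts of called genes stayed within 1.5 times of those reported under every alternative run, with 1 exception. Without the 2 vector monoculture DMSO libraries with Lyz2 above 2 CPM, 1161 genes were called in the vector interaction, against 2186, and the cause was not tested. The F133V interaction called 9992 genes in DESeq2, 10290 with RLE scaling, 10388 scaled by library size alone, 10209 with no filter, 9311 of 12557 protein-coding genes, 9908 in the 12 F133V libraries only and 10296 with length and GC trends removed. With each library left out in turn it called 10019 to 10260 genes, the olaparib effect in coculture 11793 to 12357, the effect alone 5026 to 5837, the vector interaction 1750 to 1981 and the difference of the interactions 8471 to 8795. With library size as the only scaling the median interaction of all genes moved by 0.13 and 61.4% of called ones were positive, against 51.1%. For the olaparib effect alone the share was 74.6% positive, against 50.5%, and for the effect in coculture 63.5%, against 51.5%. For the vector interaction it was 66.2%, against 52.3%. Removing length and GC trends shifted the interaction by −0.11, to 44.3% positive.

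Of 120 named genes, 115 kept their direction and their side of the threshold in each of the 21 alternatives that gave them a value. The others were Cd274 (not called with library size alone and when any of 4 libraries was left out), Oas3 (called in DESeq2, with library size alone and when any of 4 libraries was left out), Canx (0.02 with library size alone, and not called there, with no filter or in the F133V libraries only), Parp2 (not called) and Tmem173 (called), the last 2 with length and GC trends removed. Rn7sk had none with protein-coding genes only or with structural RNA left out. Of 36 list medians 14 changed sign under some setting, the farthest from 0 of them at 0.19 as reported. Same-numbered libraries of different groups did not deviate together (correlations −0.038 to 0.056 over 18 pairs), so the numbers were not taken to pair them, and with a replicate block the F133V interaction called 10285 genes. Depth limits genes of low count such as Ccl2, whose errors are wide.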
